A study of Mus musculus with 3 samples.

Results

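Chemokine genes of prostate tumors from TRAMP mice are described here in 3 libraries. The members are all rows of the deposited count table whose symbol is Ccl or Cxcl, a number and at most 1 letter, which gave 37 genes of 46095, 24 of them Ccl genes and 13 Cxcl genes. TRAMP mice (C57BL/6) express the viral SV40 oncoprotein in the prostate epithelium, and all groups carry this transgene. Tumor tissue was taken from TRAMP mice with wild-type Phf8 (TRAMP, 1 library) and from Phf8 knockout TRAMP mice (Phf8-KO, 2 libraries, Phf8-KO1 and Phf8-KO2), all at 37 weeks of age and male by the study's cross. Each library is RNA of 3 mice pooled in equal mass, and the mice and lesions in each pool are not named. Nothing states that the Phf8-KO pools came from different animals, so a p-value covers differences between pools and not between mice. Each gene has 1 residual degree of freedom, which comes from the Phf8-KO pools. The edgeR and DESeq2 tests used below also borrow information on spread from the other genes. Their p-values and standard errors therefore rest on both. Phf8 itself had 19.4 CPM (counts scaled to library size) in TRAMP against 15 in Phf8-KO1 and 15.9 in Phf8-KO2, and which part of the gene the allele lacks is not stated in the sources used here. Libraries held 26747443 to 31876182 counts. The luminal keratin gene Krt8 had 552 to 736 CPM and the prostate secretory gene Pbsn 110 to 175 CPM in all libraries. Marker genes of other tissues differed between the libraries, as 5 skeletal muscle markers summed to 1200 CPM in TRAMP against 68.2 in Phf8-KO1 and 4.53 in Phf8-KO2, 5 adipocyte markers to 632, 18.8 and 30.8 CPM, and 4 seminal vesicle markers to 108, 1350 and 1930 CPM. Wherever 3 values stand in a row, they are those of TRAMP, Phf8-KO1 and Phf8-KO2.

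Chemokines are small secreted proteins that direct the movement of cells through G protein-coupled receptors. They are named for whether the leading cysteines are adjacent (CC) or parted by another residue (CXC). Inflammatory chemokines are made on demand by macrophages, stroma and epithelium and call in monocytes, neutrophils or T cells, whereas homeostatic ones place leukocytes in lymphoid organs or at epithelial surfaces. In the prostate both epithelial and stromal cells can make them. Many of the genes lie in clusters of neighbouring copies.

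Of the 37 genes, 28 had 10 or more counts in at least 1 library and the same 28 entered the test. In single libraries, 27 reached 10 counts in TRAMP, 25 in Phf8-KO1 and 20 in Phf8-KO2, and 19 did so in every library. Ccl19, Ccl21a, Ccl21b, Ccl21c, Ccl26 and Cxcl3 had 0 counts in all libraries. Ccl20 had 7 counts and Ccl1 had 4 counts in TRAMP with 0 counts in both Phf8-KO pools, and Cxcl5 had 0, 1 and 2 counts. A count of 0 allows up to 3 counts, which correspond to 0.104 CPM in TRAMP against 0.113 in Phf8-KO1 and 0.0905 in Phf8-KO2. The 0 counts of the CCR7 ligand genes are listed values only. All 75-base stretches of the Ccl21b transcripts, 61.3% of those of Ccl21a and 45.3% of those of Ccl19 also occur in other annotated transcripts. How such reads were counted is not stated in the sources used here, and what the sharing adds to these 0 counts was not tested. Cd2, a T cell gene, was listed at 0 counts in TRAMP, where the T cell receptor complex gene Cd3g had 512.

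The edgeR values are from its quasi-likelihood test with Benjamini-Hochberg adjustment, and a call needs a change of more than 2-fold besides an adjusted p below 0.05. By this rule 0 chemokine genes were called in either direction, against 0.0384% of the 18216 tested genes called lower and 0% called higher. Among chemokine genes the smallest edgeR adjusted p was 0.101. At an unadjusted p under 0.05, 11 of the 28 were lower in Phf8-KO (39.3%, against 12.2% of all tested genes) and 3 were higher (10.7%, against 14.9%). DESeq2, the tool named in the study's methods, called 5 lower, 18.5% of the 27 genes with an adjusted p (4.59% of all genes), and these were Ccl8, Ccl11, Cxcl9, Cxcl10 and Cxcl17. It called Ccl28, Cxcl12 and Cxcl14 higher, 11.1% of the 27, near the 9.42% of all genes. Without replicates in TRAMP, all calls assume that this pool would vary like the Phf8-KO pools.

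In direction, 20 of the 28 lay below TRAMP in both Phf8-KO pools (71.4%, against 42.8% of all tested genes) and 5 lay above it in both (17.9%, against 40.8%). More than 2-fold below TRAMP in both pools were 16 (57.1%, against 12.1%), and more than 2-fold above it were 4 (14.3%, against 11.4%). The remaining 3, Ccl5, Ccl22 and Ccl27b, had TRAMP between the pools. The median log2 fold change of the 28 was -1.60, and that of all tested genes was 0.01. A gene can enter the test through a single library. Cxcl2 and Cxcl11 entered through TRAMP alone and Ccl27b through Phf8-KO1 alone, so these counts are descriptions. Among the 19 genes that met the filter in every library, 12 lay below TRAMP in both pools and 5 above, with a median log2 fold change of -1.42. The same values over all genes that met the filter in every library were not computed, so these have no comparison. In total the 37 genes took 438 CPM in TRAMP against 288 in Phf8-KO1 and 182 in Phf8-KO2.

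**Figure D1:**
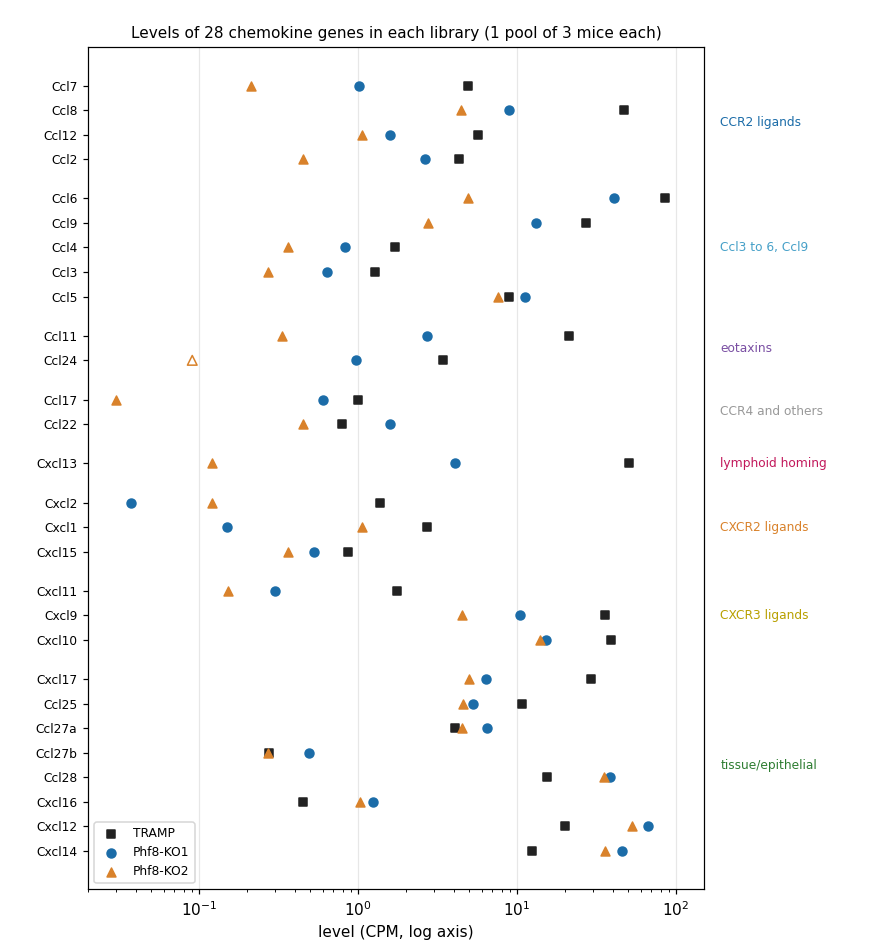
CPM on a log axis for the 28 tested chemokine genes in each library, grouped by role, drawn as squares (TRAMP), circles (Phf8-KO1) and triangles (Phf8-KO2). The open triangle is Ccl24 in Phf8-KO2, which has 0 counts and is drawn at 3 counts (0.0905 CPM). Squares lie to the right in most rows, while Cxcl12, Cxcl14, Ccl28, Cxcl16 and Ccl27a have the square on the left.

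In 4 clusters of neighbouring genes, most or all tested members lay below TRAMP in both pools, as did 42.8% of all tested genes. Coordinates are those of GENCODE M21 on GRCm38, the build of the files. On chromosome 11, Ccl2, Ccl7, Ccl11, Ccl12, Ccl8 and Ccl1 lie in this order between 82035571 and 82305690, and each of the 5 tested lay below TRAMP in both pools (log2 fold changes -3.81 to -1.48). Further along, between 83525778 and 83664683, lie Ccl5, Ccl9, Ccl6, Ccl3 and Ccl4, of which 4 lay below TRAMP in both pools and Ccl5 did not. On chromosome 5, Cxcl5, Cxcl3, Cxcl15, Cxcl1 and Cxcl2 lie between 90759360 and 90905938, where the 3 tested lay lower in both pools (-4.02 to -0.96). Cxcl9, Cxcl10 and Cxcl11 lie between 92321347 and 92365485 and all 3 lay lower (-2.96 to -1.42). Outside these 4 clusters lie genes of both directions. Cxcl13, Ccl24, Cxcl17, Ccl25 and Ccl17 lay below TRAMP in both pools, and the 5 genes above it in both also lie there, with Cxcl12 on chromosome 6, Cxcl14 and Ccl28 far apart on chromosome 13, Cxcl16 on chromosome 11 and Ccl27a on chromosome 4. Ccl27a also lies near other members, namely Ccl27b, Ccl19 and the Ccl21 genes.

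**Figure D2:**
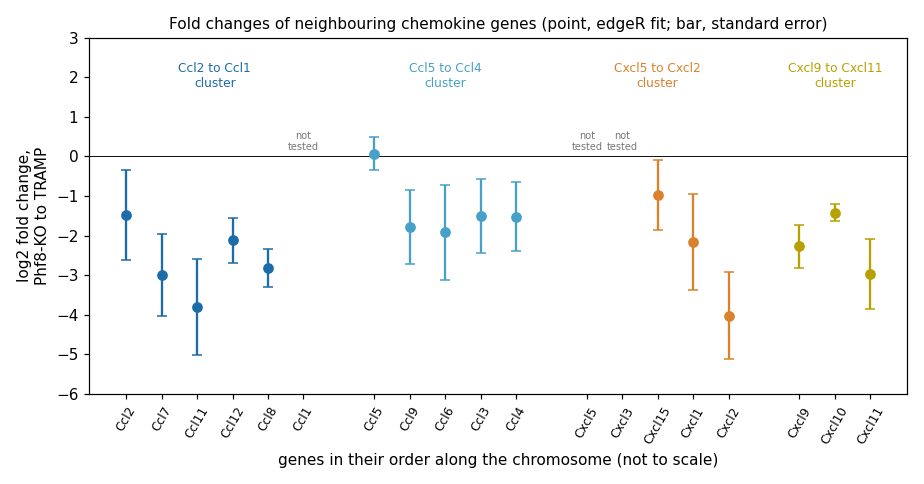
Log2 fold change of Phf8-KO to TRAMP with its standard error (SE, edgeR fit) for the genes of 4 chemokine clusters, drawn in their order along the chromosome and not to scale. Ccl1, Cxcl5 and Cxcl3 were not tested, and Ccl5 at 0.08 is the point nearest 0 and the highest.

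The promoter letters of members that lay together are shown because NF-κB and interferon signals are known to induce these genes. RefSeq promoters (GRCm38.p6) were matched for 25 of the 37 genes, with 31 start sites in all, and the 250 bases before each start were searched on both strands. The NF-κB motif stood before 7 of the 31 starts (22.6%, against 7.3% of 32851 starts of all genes), those of Cxcl1, Cxcl2, Cxcl3, Cxcl10, Ccl9, Ccl1 and Ccl20. The core of the interferon-stimulated response element, GAAANNGAA, stood before 6 (19.4%, against 7.1%), those of Cxcl9, Cxcl10, Cxcl14, Ccl3, Ccl1 and Ccl19. The STAT motif TTCNNNGAA stood before 2 (6.5%, against 7.0%), those of Cxcl14 and Ccl17. Of the genes named, Ccl1, Ccl19, Ccl20 and Cxcl3 were not tested. Before the 25 starts of tested members, the NF-κB motif stood at 4 (8.7% of the starts of all tested genes). The interferon core also stood at 4 (6.4%). Ccl8, Cxcl12 and Ccl28, which DESeq2 called, held none of these motifs, and no promoter was matched for Ccl11 and Cxcl17. Capitals mark the motif matches, which may overlap. Each sequence reads 5′ to 3′ on the gene's strand and ends at the base before the start. The regions are chr5:92348890-92349139 (minus strand) for Cxcl10, chr5:92328080-92328329 (minus strand) for Cxcl9, chr5:90890995-90891244 (plus strand) for Cxcl1, chr5:90903649-90903898 (plus strand) for Cxcl2 and chr13:56296552-56296801 (minus strand) for Cxcl14.
Cxcl10: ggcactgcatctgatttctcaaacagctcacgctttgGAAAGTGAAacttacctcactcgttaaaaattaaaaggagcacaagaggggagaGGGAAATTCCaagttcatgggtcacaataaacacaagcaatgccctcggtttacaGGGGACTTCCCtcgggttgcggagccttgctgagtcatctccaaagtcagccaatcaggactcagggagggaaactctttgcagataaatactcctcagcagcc
Cxcl9: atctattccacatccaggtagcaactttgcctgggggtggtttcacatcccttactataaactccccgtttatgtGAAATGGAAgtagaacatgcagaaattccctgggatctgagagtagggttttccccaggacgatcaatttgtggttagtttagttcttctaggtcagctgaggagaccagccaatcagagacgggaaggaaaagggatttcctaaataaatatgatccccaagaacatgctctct
Cxcl1: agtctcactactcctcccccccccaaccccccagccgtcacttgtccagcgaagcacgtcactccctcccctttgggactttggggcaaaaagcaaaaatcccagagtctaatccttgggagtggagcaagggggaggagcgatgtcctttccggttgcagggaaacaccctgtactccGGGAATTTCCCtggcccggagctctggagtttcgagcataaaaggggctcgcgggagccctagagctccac
Cxcl2: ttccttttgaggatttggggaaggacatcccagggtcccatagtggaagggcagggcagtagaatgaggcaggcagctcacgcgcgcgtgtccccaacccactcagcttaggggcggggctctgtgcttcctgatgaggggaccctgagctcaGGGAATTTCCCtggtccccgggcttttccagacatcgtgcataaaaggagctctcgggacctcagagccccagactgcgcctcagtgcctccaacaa
Cxcl14: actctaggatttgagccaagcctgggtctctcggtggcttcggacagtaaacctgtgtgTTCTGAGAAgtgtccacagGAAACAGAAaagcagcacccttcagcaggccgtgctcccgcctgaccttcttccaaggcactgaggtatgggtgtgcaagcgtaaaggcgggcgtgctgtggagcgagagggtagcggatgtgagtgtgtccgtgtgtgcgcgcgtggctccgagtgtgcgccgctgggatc
Cxcl10 holds matches to both the NF-κB motif and the interferon core, Cxcl9 to the interferon core at -175, and Cxcl1 and Cxcl2 to the NF-κB motif at -71 and -97. Cxcl14, which lay above TRAMP, holds the interferon core at -172 and the STAT motif at -191, so genes on either side of TRAMP held the interferon core. A match is a description of letters and no measure of binding.

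CCR2 ligands call in monocytes. Ccl2, Ccl7, Ccl8 and Ccl12, listed here as CCR2 ligand genes, all lay below TRAMP in both pools. Most of their summed CPM in TRAMP came from Ccl8. Ccl8, which in mice acts mainly through CCR8, had 46.8 CPM in TRAMP against 8.93 in Phf8-KO1 and 4.41 in Phf8-KO2. Both Phf8-KO pools were well below TRAMP, with a log2 fold change of -2.81 (SE 0.48, edgeR adjusted p = 0.101, DESeq2 adjusted p = 1.91e-05). In counts, TRAMP held 7.29 times the Phf8-KO level (95% counting interval 6.50 to 8.19, exact, counting error only). Per kilobase of exon, Ccl8 was the most abundant chemokine gene in TRAMP, at 91.6 CPM per kilobase. Ccl12 had 5.71 CPM in TRAMP against 1.58 in Phf8-KO1 and 1.06 in Phf8-KO2 (log2 fold change -2.12, SE 0.57). Here the counting interval of the ratio of Phf8-KO1 to Phf8-KO2, 0.93 to 2.41, includes 1. Ccl7 had 4.88, 1.01 and 0.211 CPM in the same order, with 7 counts in Phf8-KO2 (log2 fold change -3.0, SE 1.04, edgeR adjusted p = 0.180). Ccl2, the monocyte chemoattractant MCP-1, had 4.29 CPM in TRAMP against 2.63 in Phf8-KO1 and 0.453 in Phf8-KO2. Its Phf8-KO pools differed 5.80-fold (95% counting interval 3.29 to 10.9), more than Phf8-KO1 differed from TRAMP, and the log2 fold change of -1.48 had a SE of 1.13.

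Of Ccl3, Ccl4, Ccl5, Ccl6 and Ccl9, all but Ccl5 also had their highest level in TRAMP, and for Ccl6 and Ccl9 the Phf8-KO pools stood far apart. Ccl6, a macrophage chemokine of rodents, had 85.0 CPM in TRAMP against 40.5 in Phf8-KO1 and 4.92 in Phf8-KO2. Its neighbour Ccl9 had 27.3 CPM in TRAMP against 13.2 in Phf8-KO1 and 2.75 in Phf8-KO2. Phf8-KO1 thus lay about midway on a linear scale for both, and the pools differed 8.24-fold for Ccl6 (95% counting interval 6.98 to 9.78) and 4.80-fold for Ccl9 (3.80 to 6.11). The log2 fold changes were -1.91 for Ccl6 (SE 1.20) and -1.78 for Ccl9 (SE 0.95). Ccl3 (1.28, 0.638 and 0.272 CPM) and Ccl4 (1.70, 0.826 and 0.362 CPM), the macrophage inflammatory proteins, were low in every library and kept the same order. Their ratios of Phf8-KO1 to Phf8-KO2 were 2.35 for Ccl3 (95% counting interval 0.99 to 5.98) and 2.28 for Ccl4 (1.08 to 5.05), so that the interval of Ccl3 includes 1. Ccl5, a product of T and NK cells, was the exception. It had 8.93 CPM in TRAMP against 11.2 in Phf8-KO1 and 7.64 in Phf8-KO2. The log2 fold change was 0.08 (SE 0.42, edgeR adjusted p = 0.922) and became -0.070 with upper quartile scaling.

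Among eotaxins, which call in eosinophils through CCR3, Ccl11 had 21.1 CPM in TRAMP against 2.70 in Phf8-KO1 and 0.332 in Phf8-KO2. TRAMP was above both pools, with 15.2 times the Phf8-KO level (95% counting interval 12.1 to 19.3) and a log2 fold change of -3.81 (SE 1.21, edgeR adjusted p = 0.162, DESeq2 adjusted p = 0.00527). Ccl24 had 3.43, 0.976 and 0 CPM from 99, 26 and 0 counts (log2 fold change -2.83, SE 1.96, edgeR adjusted p = 0.408). The log2 ratio of Phf8-KO2 alone to TRAMP, -6.68, depends on the prior count. Of the genes for CCR4 ligands, which call in regulatory and type 2 T cells, Ccl17 had 1.0, 0.601 and 0.0302 CPM from 29, 16 and 1 counts (log2 fold change -1.69, SE 1.63). Ccl22 had 0.796, 1.58 and 0.453 CPM, with TRAMP between the pools (log2 fold change 0.34, SE 1.09). For both the SE was about as large as the change or larger.

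Cxcl13, the CXCR5 ligand that places B cells in follicles, had the largest fold change of the 28. It had 50.4 CPM in TRAMP against 4.05 in Phf8-KO1 and 0.121 in Phf8-KO2, the last from 4 counts. TRAMP lay above both pools, and the pools themselves differed 33.6-fold (95% counting interval 12.7 to 125). The log2 fold change was -4.61 (SE 1.63, edgeR adjusted p = 0.183, DESeq2 adjusted p = 0.253). Without Phf8-KO1 it was -8.34 and without Phf8-KO2 -3.62, so its size rests on which pool is used. The 5 B and plasma cell markers took 331 CPM in TRAMP against 55.7 in Phf8-KO1 and 13.6 in Phf8-KO2, mostly from Jchain, all 5 lay lower in both pools, and their part in the Cxcl13 values was not tested. Cxcr5, its receptor gene, had 7 counts in TRAMP and was not tested.

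The 3 genes of CXCR3 ligands, which interferon-γ induces and which call in T and NK cells, lay lower in both pools. Cxcl10 had 39.2 CPM in TRAMP against 15.3 in Phf8-KO1 and 13.9 in Phf8-KO2. The Phf8-KO pools were close to each other and far from TRAMP, with a log2 fold change of -1.42 (SE 0.21, edgeR adjusted p = 0.101, DESeq2 adjusted p = 0.0035). Cxcl9 had 35.9 CPM in TRAMP against 10.4 in Phf8-KO1 and 4.53 in Phf8-KO2 (log2 fold change -2.27, SE 0.55, edgeR adjusted p = 0.125, DESeq2 adjusted p = 0.00334). Cxcl11, annotated as a polymorphic pseudogene, had 1.77, 0.30 and 0.151 CPM from 51, 8 and 5 counts (log2 fold change -2.96, SE 0.88, edgeR adjusted p = 0.152). Exons of Cxcl10 overlap those of Art3 on the opposite strand and exons of Cxcl11 those of Gm2673. Art3 had 901, 552 and 95 counts and Gm2673 at most 8, and the strand setting of the counting is not stated.

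CXCR2 ligands carry a glutamate-leucine-arginine motif before the cysteines and call in neutrophils. Their genes were low in all libraries. Cxcl1 had 2.73 CPM in TRAMP against 0.150 in Phf8-KO1 and 1.06 in Phf8-KO2, from 79, 4 and 35 counts. Cxcl1 and Cxcl2 were the 2 tested members with a higher level in Phf8-KO2 than in Phf8-KO1. For Cxcl1 the log2 fold change was -2.16 (SE 1.21, edgeR adjusted p = 0.327), and the ratio of Phf8-KO1 to Phf8-KO2 was 0.142 (95% counting interval 0.0367 to 0.397). Cxcl2 had 1.38, 0.0375 and 0.121 CPM from 40, 1 and 4 counts, a log2 fold change of -4.02 (SE 1.09, edgeR adjusted p = 0.138). Cxcl15, the lungkine gene, had 0.865, 0.525 and 0.362 CPM from 25, 14 and 12 counts, and its log2 fold change was -0.96 (SE 0.88). The 7 neutrophil markers summed to 18.4, 4.95 and 2.66 CPM, and their part in these values was not tested.

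Epithelial and tissue chemokines lay on both sides of TRAMP. Cxcl12, the stromal ligand of CXCR4, had 20.0 CPM in TRAMP against 66.7 in Phf8-KO1 and 52.7 in Phf8-KO2. Cxcl14, made by epithelium and fibroblasts, had 12.4 CPM in TRAMP against 45.5 in Phf8-KO1 and 35.6 in Phf8-KO2. Ccl28, a mucosal ligand of CCR10, had 15.4 CPM in TRAMP against 38.5 in Phf8-KO1 and 35.3 in Phf8-KO2. All 3 were higher in both pools, which lay within 1.28-fold of each other. The log2 fold changes were 1.58 for Cxcl12 (SE 0.25), 1.71 for Cxcl14 (SE 0.27) and 1.26 for Ccl28 (SE 0.21), each at edgeR adjusted p = 0.101. The DESeq2 adjusted p was 0.000203 for Cxcl12, 0.000226 for Cxcl14 and 0.00546 for Ccl28. In the Phf8-KO pools Cxcl14 had the highest level per kilobase of exon of all members, at 24.9 and 19.5 CPM per kilobase against 6.80 in TRAMP. Cxcl16, the membrane-bound CXCR6 ligand, had 0.450, 1.24 and 1.03 CPM from 13, 33 and 34 counts.

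Cxcl17, a chemokine of mucosal epithelium, had the opposite direction within this group. It had 29.3 CPM in TRAMP against 6.42 in Phf8-KO1 and 4.98 in Phf8-KO2. The pools lay close together, and the log2 fold change was -2.36 (SE 0.31, edgeR adjusted p = 0.101, DESeq2 adjusted p = 3.0e-05). TRAMP held 5.22 times the Phf8-KO level (95% counting interval 4.59 to 5.94). Ccl25, the CCR9 ligand of thymus and small intestine, had 10.7, 5.25 and 4.59 CPM (log2 fold change -1.12, SE 0.39, edgeR adjusted p = 0.180). Ccl27a, a CCR10 ligand of skin, had 4.08, 6.49 and 4.50 CPM, and 98.0% of the 75-base stretches of its copy Ccl27b (0.277, 0.488 and 0.272 CPM, from 8, 13 and 9 counts) occur in Ccl27a or another gene. Ccl25, Ccl27a and Cxcl16 each overlap exons of a gene on the opposite strand, of which Elavl1 and Il11ra1 had at least 1391 counts in every library and Zmynd15 at most 1.

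**Figure D3:**
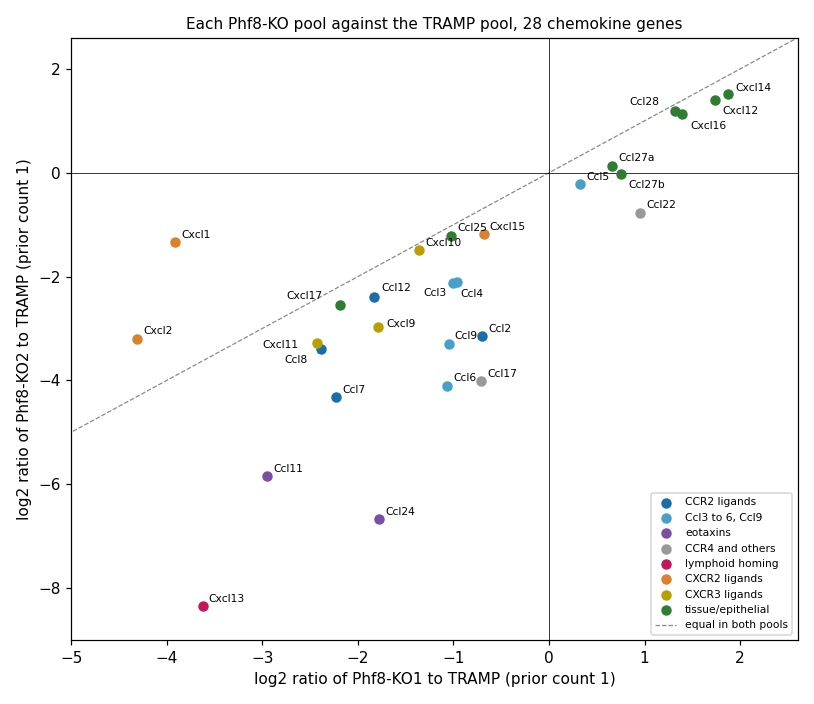
Log2 ratio of each Phf8-KO pool to TRAMP for the 28 tested chemokine genes (CPM with a prior count of 1), Phf8-KO1 on the horizontal and Phf8-KO2 on the vertical axis. Points below the dashed line are lower in Phf8-KO2 than in Phf8-KO1, which holds for all but Cxcl1 and Cxcl2, and Cxcl13 lies lowest at -3.62 and -8.35.

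Most chemokine genes also ranked the Phf8-KO pools alike. Of the 28 genes, 26 were lower in Phf8-KO2 than in Phf8-KO1, and 15 lay more than 2-fold apart between the pools (53.6%, against 18.3% of all tested genes). The exact 95% counting interval of the ratio lay above 1 for 16 genes and below 1 for Cxcl1. Shares over all tested genes were not computed for the direction between the pools or for this interval. Whether these counts differ from those of genes in general is therefore not known. Of the 5 leukocyte markers 4 lay below TRAMP in both pools (42.8% of all tested genes), and Laptm5 (0.173, 0.0751 and 0.785 CPM) did not. They summed to 160 CPM in TRAMP against 77.8 in Phf8-KO1 and 41.0 in Phf8-KO2, and 8 macrophage markers to 466, 228 and 97.8 CPM. All 8 macrophage markers lay below TRAMP in both pools, and 7 T cell markers summed to 36.5, 14.3 and 7.30 CPM. The 5 smooth muscle markers summed to 666, 4880 and 357 CPM. The part of cell content in the chemokine values was not tested, and in bulk tissue fewer cells of a type and less RNA per cell cannot be told apart. The 6 fibroblast markers summed to 1720, 1690 and 703 CPM. Of these, 3 lay above TRAMP in both pools (40.8% of all tested genes), with the largest change in Col1a1 at 8.20, 163 and 97.1 CPM. Dcn lay below it in both, and Lum (60.9, 75.3 and 2.54 CPM) and Pdgfra (43.7, 28.9 and 86.9 CPM) had TRAMP between the pools.

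Chemokine receptor genes lay mostly on the same side as the inflammatory ligands. Of 18 receptor genes 11 were tested. Of these, 9 lay below TRAMP in both pools (42.8% of all tested genes) and 0 above (40.8%). By edgeR 0 were called (3 lower by unadjusted p below 0.05, against 12.2% of all tested genes). Ccr2 was among those lower by DESeq2 (4.59% of all genes). Ccr2 had 26.7 CPM in TRAMP against 8.33 in Phf8-KO1 and 1.72 in Phf8-KO2, the order its ligand gene Ccl2 has. Cxcr3 had 1.70, 0.826 and 0.483 CPM, on the side of Cxcl9 and Cxcl10. Cxcr4, the receptor gene for Cxcl12, had 6.37, 4.13 and 7.06 CPM, with TRAMP between the pools. Cxcr6, that for Cxcl16, had 8.96, 3.38 and 1.57 CPM, on the other side of TRAMP from its ligand gene. The scavenging receptor gene Ackr3, which also binds CXCL12, had 44.8 CPM in TRAMP against 43.6 in Phf8-KO1 and 6.31 in Phf8-KO2. Ccrl2, a non-signalling receptor that binds chemerin, had 17.7, 3.87 and 2.75 CPM (log2 fold change -2.42, edgeR adjusted p = 0.101). It was the 1 of 5 atypical receptor genes that DESeq2 called, as lower (4.59% of all genes).

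Genes of chemokine inducers lay on both sides of TRAMP. Of 15 genes of NF-κB and cytokines 10 were tested, of which 3 lay below TRAMP in both pools and 6 above (42.8% and 40.8% of all tested genes), and edgeR called 0 (1 lower and 4 higher by unadjusted p below 0.05, against 12.2% and 14.9% of all tested genes). Il1b, a cytokine that induces Cxcl1 and Cxcl2, had 6.96 CPM in TRAMP against 0.976 in Phf8-KO1 and 1.03 in Phf8-KO2. It was called lower by DESeq2, as were 4.59% of all genes. The NF-κB subunit genes Rela (27.4, 65.2 and 74.2 CPM), Nfkb2 (14.3, 38.1 and 42.8 CPM) and Relb (8.17, 17.8 and 24.5 CPM) were called higher by DESeq2, as were 9.42% of all genes. Of 7 interferon signalling genes 6 lay below TRAMP in both pools (42.8% of all tested genes), with a median log2 fold change of -0.33. Both edgeR and DESeq2 called 0 (1 lower by unadjusted p below 0.05, against 12.2% of all tested genes). Ifng had 5, 6 and 1 counts and was not tested.

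**Figure D4:**
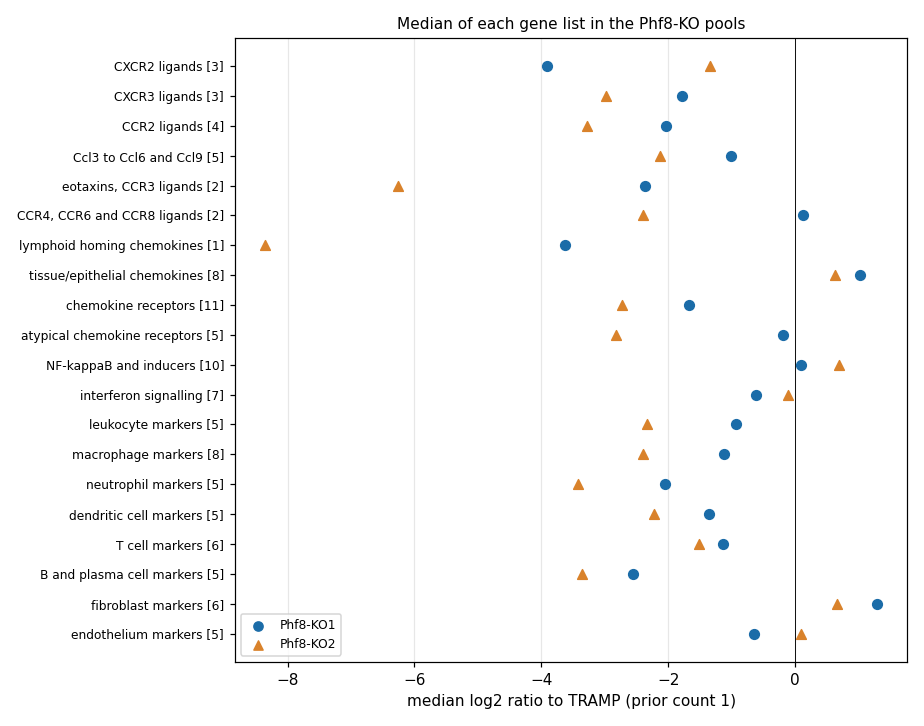
Median log2 ratio to TRAMP of the tested genes (number in brackets) of each chemokine role and of selected pathway and marker lists, Phf8-KO1 as circles and Phf8-KO2 as triangles. Tissue and epithelial chemokines (1.03 and 0.64) are the chemokine role that lies right of 0 in both pools, and macrophage markers lie at -1.12 and -2.39.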

How the data were processed

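RNA-seq of prostate tumor tissue was analysed from 3 libraries, each RNA pooled from 3 mice. Reads had been filtered by the authors, aligned to GRCm38 (HISAT2) and assigned to genes (HTSeq), which gave the deposited raw counts. Tool versions, annotation and strand setting are not given in the sources used here, so reads of overlapping or near-identical genes may be lost or shared. In R 4.3.3, counts were tested with edgeR 4.0.16 (quasi-likelihood test, default settings, TMM scaling, filterByExpr by group, Benjamini-Hochberg adjustment over 18216 genes), which was tested on simulated data first. CPM were computed here from TMM library sizes (factors 0.965, 0.997 and 1.04), and ratios per library used a prior count of 1. The standard error is the log2 fold change divided by the root of F. Alternatives were DESeq2 1.42.0, limma 3.58.1 (voom), other scalings and filters, no fold threshold, and leaving out a Phf8-KO pool. Exact 95% counting intervals cover counting error only. Lengths, overlaps and shared stretches come from GENCODE M21.

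Chemokine members and all gene lists were chosen with earlier results of these data known. Every tested member is named, with fit statistics for the 15 of largest absolute log2 fold change and the 8 of highest mean CPM. From the other lists the rule names genes that passed the test and up to 6 of smallest p. Further statistics, and genes named beyond this rule (such as the receptors of single ligands, Ackr3 and Dcn), were chosen after their values were seen. Some genes of these lists are not reported here.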

Additional observations from a re-analysis of the deposited data

How the results depend on the processing

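The calls depended on the tool and the filter. Chemokine genes called lower and higher numbered 0 and 0 by edgeR, 5 and 3 by DESeq2, and 6 and 3 by edgeR when genes of low count were kept, the last being the 8 of DESeq2 plus Cxcl13. Both settings also raised the calls over all genes, from 7 lower and 0 higher to 747 lower and 1533 higher with DESeq2 and to 856 lower and 1430 higher without the filter. Library size scaling gave 19 lower and 1 higher, upper quartile scaling 10 and 0, the quasi-likelihood version without the legacy setting 10 and 0, and limma-voom and a mean CPM of at least 1 gave 0 and 0, with 0 chemokine genes called under each of these and under RLE scaling. The cause was not tested. The log2 fold change of Ccl5 turned to -0.070 with upper quartile scaling, which shifted all genes by -0.15, and no other tested chemokine gene changed sign under the scalings, filters and tools. With Phf8-KO1 left out, Ccl5 (-0.19) and Ccl22 (-0.74) turned lower. Leaving out 1 Phf8-KO pool gave a median log2 fold change of -2.24 to -1.03, values with no test since 1 library stands against 1. Counted against TRAMP in 1 pool alone, an alternative chosen after seeing the data, 20 to 23 genes were lower and 5 to 8 higher, 16 to 20 more than 2-fold lower and 4 to 4 more than 2-fold higher. The 8 higher genes of Phf8-KO1 include Ccl5, Ccl22 and Ccl27b. No paired analysis was possible because TRAMP has 1 library. With 1 TRAMP pool, its own spread is unknown, and genes under about 10 counts give wide intervals.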

Other observations

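Chemokines whose names fall outside Ccl and Cxcl were listed apart. Cx3cl1, the membrane-bound chemokine fractalkine, had 29.1 CPM in TRAMP against 78.7 in Phf8-KO1 and 87.2 in Phf8-KO2 (log2 fold change 1.51, edgeR adjusted p = 0.101, DESeq2 adjusted p = 5.65e-05). Its receptor gene Cx3cr1 had 5.36, 6.12 and 3.95 CPM, with TRAMP between the pools. Xcl1, the lymphotactin gene of T and NK cells, had 4.53, 1.20 and 1.48 CPM (log2 fold change -1.75, edgeR adjusted p = 0.161), and its receptor gene Xcr1 had 1.38, 0.863 and 1.12 CPM. The platelet chemokine genes Ppbp and Pf4 had 0 counts and at most 2 counts.

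Mast cell genes stood on the side of the eotaxin and CCR2 ligand genes. Cpa3 had 5.61 CPM in TRAMP against 0.863 in Phf8-KO1 and 0.332 in Phf8-KO2, and Cma1, Tpsb2 and Mcpt4 also lay lower in both pools. Kit, the stem cell factor receptor gene that mast cells share with other cell types, had 7.37, 39.8 and 60.2 CPM. Of the 5 mast cell markers edgeR called 0 (2 lower and 1 higher by unadjusted p below 0.05, against 12.2% and 14.9% of all tested genes), while Cpa3 was lower and Kit higher by DESeq2 (4.59% and 9.42% of all genes).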
